A study of Mus musculus with 2 samples.

Results

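The late-numbered miRNA genes of the mouse, Mir6000 to Mir8200, were described in small RNA libraries of cerebral cortex. A gene belonged to the set when its GENCODE M21 name was Mir followed by a number from 6000 to 8200, with any letter or copy suffix, and no measured value entered this choice. The rule gave 419 of the 2202 miRNA genes in the count tables, leaving 1783 other genes for comparison. The libraries came from cerebral cortex of the mouse strain B6NCrl and were described as wild-type female controls, with no allele or agent named. There was 1 group of 2 libraries, numbered as biological replicates 1 and 2, so no condition was compared. Both cited the same donor record, age was not recorded, and separate animals were not stated, so the spread between the libraries may be technical.

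A miRNA is usually cut from a hairpin transcript by the nuclear Drosha complex and then by Dicer, and 1 strand of the resulting duplex guides an Argonaute protein to target transcripts. A mirtron is a short intron that folds into a hairpin after splicing and enters Dicer processing without Drosha. In a tailed mirtron the hairpin sits at only 1 end of a longer intron, and the tail at the other end has to be trimmed. Read counts per gene do not tell a processed miRNA from another RNA fragment of the same locus.

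Sequences are shown for members with high counts or with a hairpin that fills an intron. The letters AG at the hairpin end and pyrimidine-rich 3p arms recur in the members that end on a splice acceptor. Of all 419 members, 209 ended in AG and 40 began with GU. Hairpins below are GENCODE M21 transcripts on GRCm38 (mm10), 5′ to 3′, with capitals on the first bases where they start an intron and on the last bases where they end one.
Mir7080: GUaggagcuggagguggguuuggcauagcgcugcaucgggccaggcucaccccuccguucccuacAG
Mir6944: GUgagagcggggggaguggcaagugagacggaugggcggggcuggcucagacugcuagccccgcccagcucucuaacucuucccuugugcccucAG
Mir7070: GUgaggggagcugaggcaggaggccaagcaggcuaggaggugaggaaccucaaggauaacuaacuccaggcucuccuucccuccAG
Mir7044: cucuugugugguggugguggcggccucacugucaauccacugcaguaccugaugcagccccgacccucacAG
The first 3 began with GU and ended with AG, the letters of a splice donor and a splice acceptor, and the last carried only the acceptor letters.

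Mature sequences from RefSeq (GRCm38.p6) are given for the same genes and for other abundant members, with the seed, bases 2 to 8, in capitals.
mmu-miR-7689-5p: cCGAGGCAgccuggcuuag
mmu-miR-7689-3p: uUAGAGCCagacugccuggguuu
mmu-miR-7044-5p: gUGUGGUGgugguggcggc
mmu-miR-7044-3p: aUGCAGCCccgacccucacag
mmu-miR-7080-5p: gUAGGAGCuggagguggguuugg
mmu-miR-7080-3p: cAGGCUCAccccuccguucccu
mmu-miR-6540-3p: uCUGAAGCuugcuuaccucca
mmu-miR-6944-5p: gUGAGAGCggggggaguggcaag
mmu-miR-6944-3p: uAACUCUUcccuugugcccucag
mmu-miR-7070-5p: gUGAGGGGagcugaggcagga
mmu-miR-7070-3p: cAGGCUCUccuucccuccag
mmu-miR-8112: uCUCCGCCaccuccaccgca
mmu-miR-8114: uCACCCAUcuccucuccgccu
The deposited counts were per gene, so the arms of a hairpin could not be told apart and no level belongs to a single mature sequence.

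Few of these genes were counted often. Of the 419 genes, 237 had at least 1 sense-strand count and 182 had none in either library. A gene was called detected at 2 CPM (counts per 1000000 gene counts) or more in both libraries, which took 9 counts or more in replicate 1 and 14 or more in replicate 2. By that rule 85 members were detected, or 20.3%, against 19.9% of all genes in the tables and 19.8% of the other genes. The share detected was thus near this background, which is a mix of unlike groups. Of the other genes 1039 had other names than Mir and a number, and 2.41% of these were detected. Of the 514 genes numbered under 1000, 50.6% were detected. The levels were not: the median of the mean CPM over detected members was 5.06, against 163 over the 353 other detected genes. CPM is a level per gene and was not divided by length, and the hairpins had a median length of 70 nt against 93 nt in the other genes. A further 22 members reached 2 CPM in replicate 1 alone and 2 in replicate 2 alone. Just above the minimum stood Mir7070 at 2.00 CPM and Mir6908 at 2.00 CPM in replicate 2, and just under it Mir6962 and Mir7687, both at 1.86 CPM there.

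Together the members held 15893 counts in replicate 1 and 15216 in replicate 2, a share of 0.288% ± 0.0997 (SD, n = 2) of all gene counts. Mir7689 alone gave 59.2% of the members' counts in replicate 1 and 54.0% in replicate 2. Without it the share was 0.123% ± 0.0328 (SD, n = 2). The 10 highest members held 78.7% and 76.1% of the members' counts, and 25 members had a mean of 10 CPM or more. Only 3 reached 100 CPM.

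The libraries held 12506469 and 18276311 reads, of which 4429633 and 6985784 were sense counts of miRNA genes. Reads placed at several loci, which entered no gene's count, made up 43.9% and 47.9% of reads. A count of 0 allowed up to 0.677 CPM in replicate 1 and 0.429 CPM in replicate 2. Such limits cover counting error only, because reads without molecular identifiers are not independent molecules. As a check of the tissue, 13 of 13 listed neuronal miRNA genes had counts, with 9 detected, and they held 6.08% and 8.04% of counts. Most of that share lay in Mir132, at a mean of 52078 CPM. The listed neuronal genes not detected were Mir124a-1, Mir124a-2, Mir124a-3 and Mir9-2. The part of uncounted, multiply placed reads in this was not tested. The 3 listed red blood cell genes held 0.00133% and 0.00203% of counts, and the 1 liver gene 0.00253% and 0.00313%. All 10 listed epithelial and sensory genes were detected too, and their share of counts was 2.75% and 0.369%, while that of the 5 choroid plexus genes was 0.117% and 0.247%. The part of these other tissues in the members' counts was not tested.

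**Figure D1:**
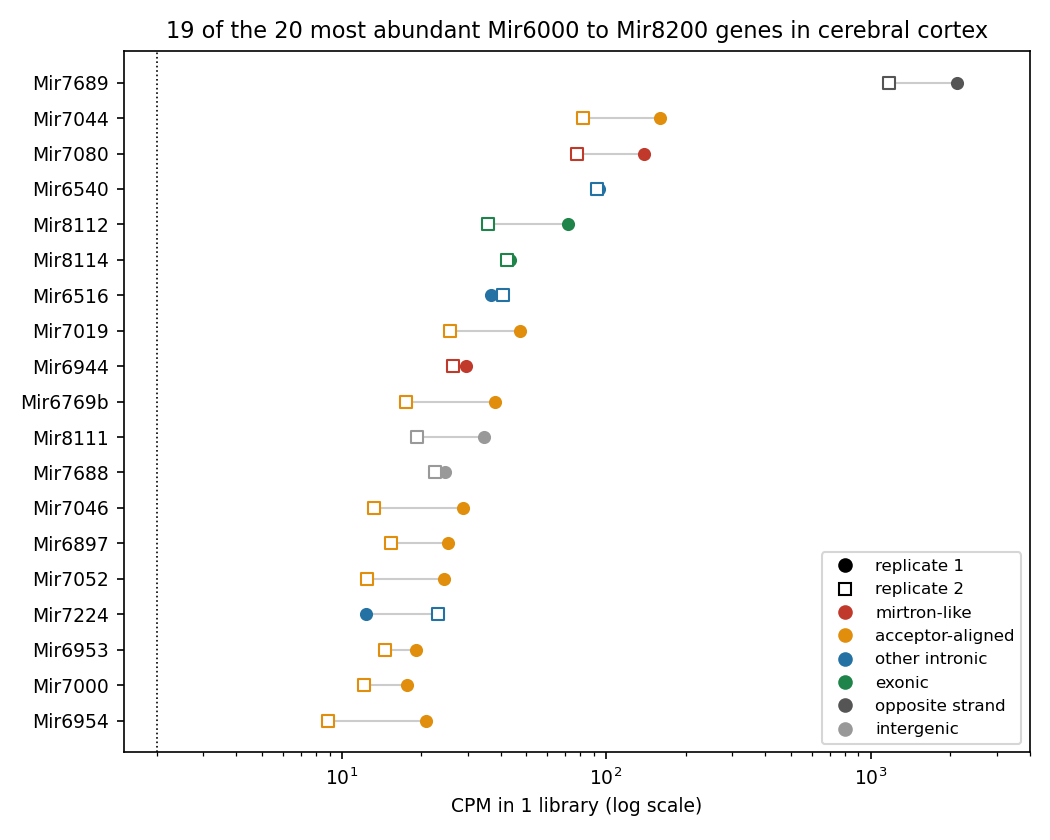
CPM on a log axis of 19 of the 20 members of highest mean, with replicate 1 as filled circles and replicate 2 as open squares, coloured by the position of the hairpin, and a dotted line at 2 CPM. Mir7689 stands at 2123 and 1177 CPM, and replicate 1 is the higher library for most of the others.

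Mir7689 had 9405 counts in replicate 1 and 8224 in replicate 2, or 2123 and 1177 CPM, and a mean of 1650 ± 669 CPM (SD, n = 2). It ranked 78 among all 2202 genes. It lies at chr5:36301570-36301628 on the plus strand of mm10, within an intron of Sorcs2 but on the opposite strand. Sorcs2 encodes a neuronal sorting receptor of the Vps10 domain family. The other 33 members opposite a host gene held few counts, and only 1 of them, Mir7240 opposite Mast3, was detected, at 8.13 and 7.87 CPM. The next of them, Mir7668 opposite Zfp27, had 1.81 and 1.43 CPM.

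The next members in rank were hairpins at intron ends. Mir7044, at chr6:118085192-118085263, ends exactly on the splice acceptor of an intron of Rasgef1a, a Ras guanine nucleotide exchange factor, and overlaps coding sequence of another transcript of that gene. It had 706 and 569 counts, or 159 and 81.5 CPM. Mir7080 fills a 67 nt intron of the copine gene Cpne7, at chr8:123130106-123130172, and also overlaps an annotated exon of another transcript on the same strand. Mir7080 had 618 and 542 counts, or 140 and 77.6 CPM. Both were lower in replicate 2 than in replicate 1, with log2 ratios of -0.84 and -0.72 after scaling.

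Mir6540 had nearly the same CPM in both libraries. It lies deep in a 48106 nt intron of Gap43, the gene of a growth-cone and presynaptic protein, at chr16:42303362-42303469. Its 417 and 646 counts gave 94.1 and 92.5 CPM, a mean of 93.3 ± 1.18 CPM (SD, n = 2).

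The other members among the 20 highest had varied hosts. Mir8114, at 43.3 and 42.4 CPM, overlaps the 5′ untranslated region of Glul, the glutamine synthetase of astrocytes. Mir7019, at 47.4 and 25.6 CPM, lies on an acceptor in Pink1, a mitochondrial kinase, and also overlaps 5′ untranslated sequence. Mir6944 fills a 96 nt intron of Dbn1, which encodes the dendritic spine protein drebrin, and had 29.6 and 26.3 CPM. Mir6769b, at 37.9 and 17.5 CPM, lies on an acceptor in Unc13a, a priming factor of synaptic vesicles. The 6 remaining acceptor-aligned members lay in Rabac1, Uggt1, Josd2, Grina, Mapk8ip1 and Mroh1, with means from 21.1 CPM for Mir7046 in the Rab acceptor gene Rabac1 down to 14.8 CPM for Mir6954 in Mroh1. Host transcripts were not measured in these libraries, so no host level was set beside these values. Mir6516, at 36.8 and 40.9 CPM in the small nucleolar RNA host gene Snhg20, overlaps the small Cajal body RNA gene Gm26083 on the same strand, and reads of the 2 genes could not be told apart. Mir6516 and Mir6954 each also overlap an annotated exon of another transcript on the same strand.

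Positions were taken from GENCODE M21. A hairpin was called mirtron-like when both of its ends lay within 10 nt of the ends of 1 intron of a gene on the same strand, acceptor-aligned when only its 3′ end did so, and donor-aligned when only its 5′ end did so. The rule placed 4 mirtrons with lower numbers, Mir702, Mir877, Mir1224 and Mir1981, in the mirtron-like class, and each was detected, at 228 to 410 CPM on average. Mir702 had distances of -9 nt at the donor (negative: outside the intron) and 2 nt at the acceptor, and would not meet a tolerance of 3 nt. The others of these fill their introns exactly. Among the members, 18 were mirtron-like, 192 acceptor-aligned and 4 donor-aligned, so that 214 of 419 sat on a splice junction. Among the 1783 other genes the same classes held 40.

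Most of the alignments to splice acceptors were exact. In 194 members the last base of the hairpin was the last base of the intron, against 16 of the other genes. The hairpin ended in the letters AG, searched on the hairpin's own strand, in 209 members (49.9%), against 7.07% of the other genes and 15.2% of all genes. Among the acceptor-aligned members 178 of 192 ended in AG, while 15 of 192 began with GU. Of the 18 mirtron-like members 17 ended in AG and 14 began with GU. These letters follow from the position on a splice site and are no independent measure of it.

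**Figure D2:**
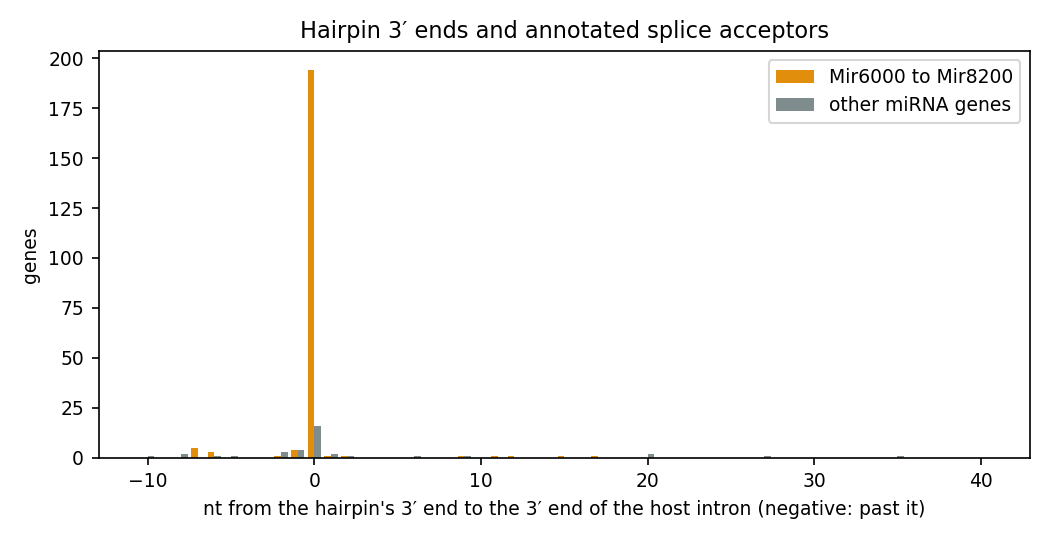
Number of genes by the distance in nt from the hairpin's 3′ end to the 3′ end of the host intron, for Mir6000 to Mir8200 and for other miRNA genes within 40 nt. The peak at 0 nt holds 194 members and 16 other genes.

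The mature 3p arms carried the acceptor's pyrimidine tract. Over 169 3p sequences of acceptor-aligned members the median pyrimidine content was 72.7%, and 132 of them ended in AG at the end of the hairpin. In 14 mirtron-like members with a 3p sequence the median was 76.1%. In members of the other classes it was 53.3% over 72 sequences, and in the other genes 54.5% over 447. The 5p arms of the acceptor-aligned members were purine-rich, with a median pyrimidine content of 33.3% and a median G content of 43.5%. Detected and undetected acceptor-aligned members had nearly the same median 3p pyrimidine content, at 71.4% and 72.7%.

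Detection was described by position. Of the 214 junction-aligned members 66 were detected (30.8%), and of the other 205 members 19 (9.27%). Detection was 6 of 18 (33.3%) for mirtron-like, 59 of 192 (30.7%) for acceptor-aligned and 1 of 4 for donor-aligned hairpins. It was 9 of 81 (11.1%) for other intronic, 5 of 31 (16.1%) for exonic, 2 of 34 (5.88%) for opposite-strand and 3 of 59 (5.08%) for intergenic ones. These shares are descriptions with no test, and neighbouring classes of small size cannot be ordered. The other genes differed in the same direction, with 24 of 40 junction-aligned genes detected (60.0%) and 329 of 1743 of the rest (18.9%). Of these other genes 1039 had other names than Mir and a number, with 2.41% detected. The contrast was not made without them.

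**Figure D3:**
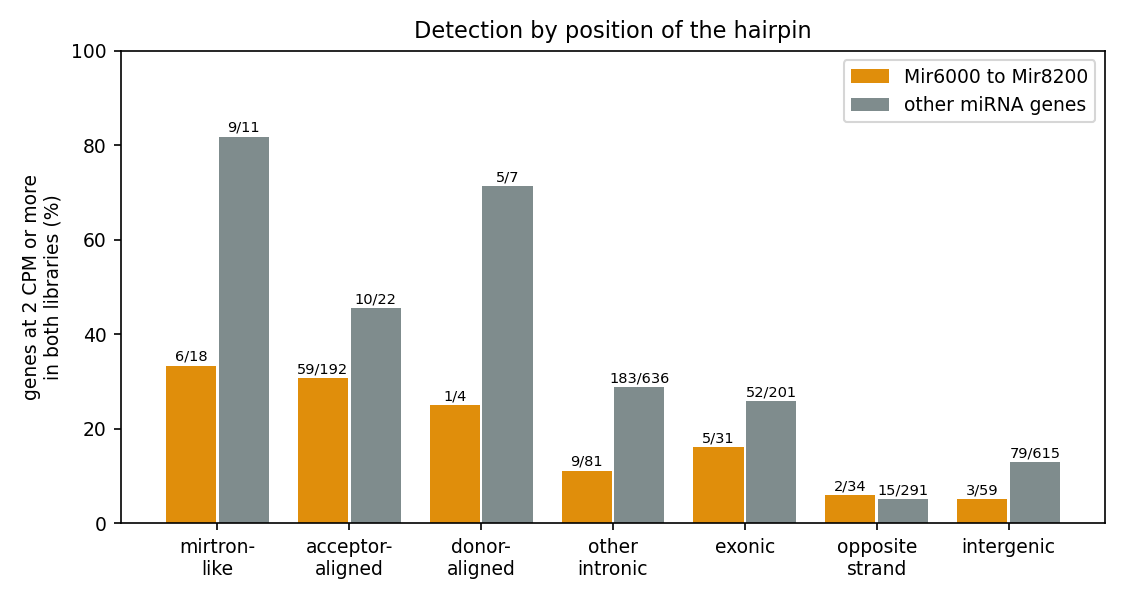
Percent of genes at 2 CPM or more in both libraries by position class, for Mir6000 to Mir8200 and for the other miRNA genes, with detected and total genes above each bar. Among the members the mirtron-like and acceptor-aligned bars are near 30%, and the intergenic and opposite-strand bars near 5%.

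The 6 detected mirtron-like members were Mir7080 (Cpne7), Mir6944 (Dbn1), Mir6958 (Dennd6b), Mir7070 (Fbxw9), Mir7032 (Hip1r) and Mir7068 (Cherp). Their means ran from 109 CPM for Mir7080 down to 2.86 CPM for Mir7068. Of the other 12, 5 had no count in either library. Their introns had a median length of 84 nt.

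The acceptor-aligned hairpins lay in introns with a median length of 572 nt. The tail from the donor to the hairpin ran from 11 nt to 36205 nt, and 45 introns were no longer than 150 nt. When the 192 genes were split by tail length into equal groups of 64, 23 were detected at tails of 11 to 228 nt, 17 at 243 to 1054 nt and 19 at 1063 to 36205 nt. The number detected thus had no steady order with tail length. All 59 detected acceptor-aligned members were among the 177 whose distance from the acceptor was 0, and none of the other 15 was detected. Among hairpins that also overlapped an exon of another transcript 11 of 37 were detected (29.7%), and 48 of 155 among the rest (31.0%).

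Of the donor-aligned members Mir6936 in Sirt7, a sirtuin deacetylase, was detected, at 7.68 and 2.58 CPM, and Mir6977 in Ptprs stayed under the minimum in replicate 2 at 1.43 CPM. Mir6927 in Mllt6 had 0.903 and 0.429 CPM. Of the 5 detected exonic members 4 overlapped only 5′ untranslated sequence, among 7 exonic members placed there. They included Mir8112 in Krcc1 (72.0 and 35.6 CPM), Mir8114 in Glul, and Mir8101 in Hdac5 (5.42 and 3.01 CPM), a histone deacetylase. None of the 6 exonic members that overlapped only 3′ untranslated sequence was detected. Members on a splice junction were classed before exonic ones, so these counts leave out junction-aligned members that also overlap untranslated sequence. Among those left out were the detected Mir7019, with 5′ untranslated sequence, and Mir6945 in Pdlim7, with 3′ untranslated sequence. Mir6945 had 12.6 and 6.01 CPM. Among intergenic members Mir8111 (34.5 and 19.3 CPM), Mir7688 (24.6 and 22.6 CPM) and Mir6236 (7.68 and 6.16 CPM) were detected.

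Detection also went with the GC content of the hairpin. None of the 63 members under 45% GC was detected, although 17 of them had counts, 51 in replicate 1 and 60 in replicate 2. Between 45% and 55% GC 21 of 162 were detected (13.0%), between 55% and 65% 49 of 156 (31.4%), and at 65% or more 15 of 38 (39.5%). In the other genes the shares from low to high GC were 14.8%, 25.6%, 19.8% and 17.4%, with no such order. These pool 1039 genes with other names than Mir and a number, with 2.41% detected, and the bins were not split by name. The median GC content was 60.0% in detected and 52.7% in undetected members, against 51.5% and 49.6% in the other genes.

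The order by GC was present within the acceptor-aligned members, where 0 of 15, 16 of 64 (25.0%), 35 of 100 (35.0%) and 8 of 13 (61.5%) were detected from the lowest to the highest bin. Members off a splice junction gave 0 of 48, 5 of 93 (5.38%), 10 of 45 (22.2%) and 4 of 19 (21.1%). The bins rose in each library read alone, with 1, 27, 60 and 19 members of the 63, 162, 156 and 38 at 2 CPM or more in replicate 1, and 0, 22, 50 and 15 in replicate 2. The highest members under 45% GC were Mir7073 in Cnot1, at 1.58 and 1.57 CPM, Mir6946 in Sec24c and Mir7651 in Zmiz2. Predicted folding energy per nt moved with GC, at a median of -0.429 kcal/mol in detected and -0.362 kcal/mol in undetected members. Neither GC bias of the libraries nor folding was tested as a reason for the order.

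**Figure D4:**
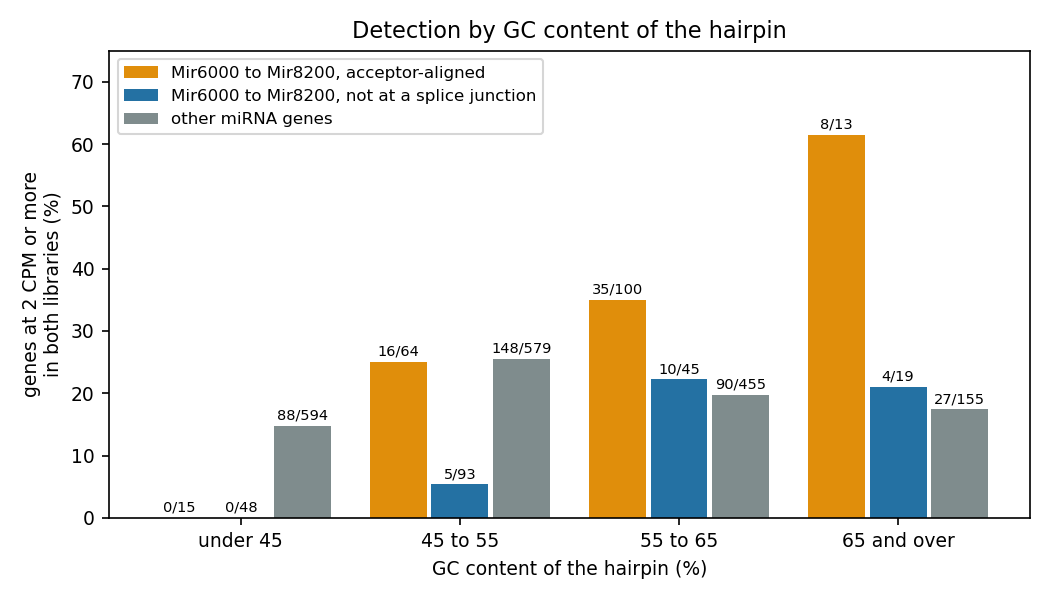
Percent of genes at 2 CPM or more in both libraries by GC content of the hairpin, for acceptor-aligned members, members away from splice junctions, and other miRNA genes, with detected and total genes above each bar. The acceptor-aligned bars rise from 0% under 45% GC to 61.5% at 65% GC or more, and those of the other genes do not.

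The position classes were unevenly spread along the gene numbers. The numbers Mir6900 to Mir7099 held 197 members, of which 174 were acceptor-aligned, 18 mirtron-like and 3 donor-aligned, and 61 were detected (31.0%). Outside them 24 of 222 were detected (10.8%). The median GC was 57.4% inside that number range and 52.0% outside it. Of the 65 members numbered in the 6300s none was detected and 2 had any count, 1 in replicate 1 and 7 in replicate 2. None of these 65 was acceptor-aligned, and their median GC was 48.1%. The 21 members numbered in the 8100s had a median GC of 57.9% with no hairpin on a splice junction, and 5 of them were detected (23.8%). Over all genes counted, 260 of 514 genes numbered under 1000 were detected (50.6%), 27 of 86 in the range starting at 1000 (31.4%), 30 of 93 in that starting at 2000 (32.3%) and 11 of 51 in that from 4000 up to the members (21.6%). The members' 20.3% followed these, and genes with other names stood at 2.41%.

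A host gene on either strand was annotated for 360 members, in 348 genes. Of the 85 detected members 82 had a host, 81 of them protein-coding, and no host held more than 1 detected member. Of the 338 members with a protein-coding host 81 were detected (24.0%), and of the 11 in a lincRNA 1 was. The 214 junction-aligned members, of which 66 were detected, have a host by definition, so host and position were not told apart here. Of the 12 hosts with a pair of members, 5 held 1 detected member and 2 had no count from either. The counts of these 5 pairs are given side by side, with no test. In B3galt1, a galactosyltransferase gene, Mir7224 had 55 and 162 counts and Mir6335 had 0 and 0. In Camk2a, the gene of an abundant postsynaptic kinase, Mir6982 had 82 and 69 counts and Mir7220 had 17 and 11. In Skiv2l the acceptor-aligned Mir6971 had 58 and 76 counts, and the mirtron-like Mir6970 had 1 and 2. In Ankrd52 Mir6915 had 11 and 20 counts and Mir6914 had 8 and 8, and in Ddx39b Mir6975 had 12 and 25 and Mir8094 had none.

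Seeds were compared for the detected members. The 78 detected members with a RefSeq entry had 146 mature sequences with 143 seeds, and 33 of the seeds occurred in a mature sequence of another gene, 19 of them in another member. The seed UCUGGGA was common to miR-6907-5p and miR-7019-5p, and CCAGGGU to miR-6990-5p and miR-7032-5p. CAGUGGG was common to miR-6926-5p, miR-7055-5p and the older miR-194-2-3p, and UGGGAGA joined miR-6958-5p to miR-30c-1-3p and miR-30c-2-3p. A shared seed is a match of letters and was not tested for shared targets.

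The 2 libraries differed in the level of several members. Each detected gene was compared with an exact two-sided binomial test on its counts, after scaling by the trimmed mean of M-values (TMM) and with Benjamini-Hochberg adjustment over all 438 detected genes, and called at an adjusted p under 0.05 with at least a 2-fold ratio. The test compares these libraries and counting error, not conditions. By this rule 9 of 85 members were called (10.6%), against 18.0% of all detected genes and 19.8% of the other detected genes. Of the 9, 8 were higher in replicate 1, where the background was 8.68%, and 1 was higher in replicate 2, where it was 9.36%. With library totals in place of TMM, 15 of 85 members were called (17.6%), all higher in replicate 1, against 19.2% of all detected genes and 12.6% called higher in replicate 1. Mir7224 was then no longer called. Without the ratio, 24 of 85 members had an adjusted p under 0.05 by the same exact test (28.2%), against 63.9% of all detected genes. Such a test has less power at low counts, and the members had lower levels than the other genes. Under 50 CPM the shares were 19 of 79 members (24.1%) and 59 of 133 other detected genes (44.4%).

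The member higher in replicate 2 was Mir7224 in B3galt1, with 12.4 and 23.2 CPM and a log2 ratio of 1.02 (95% interval 0.58 to 1.5, adjusted p = 4.8e-06, exact binomial test). Mir7115, on an acceptor in the beta-arrestin gene Arrb2, had the lowest log2 ratio of the called members, at -1.64, from 7.45 CPM in replicate 1 and 2.15 CPM in replicate 2. Mir6990 followed at -1.60 in Esrra, an orphan nuclear receptor gene, and Mir7070 at -1.56. The others higher in replicate 1 were Mir6936 (-1.43), Mir7069 in the tRNA synthetase gene Farsa (-1.40), Mir6943 in the G protein-coupled receptor kinase gene Grk6 (-1.16), Mir6968 in Phf1 (-1.13) and Mir6954 in Mroh1 (-1.10). The 8 members had 5.64 to 20.8 CPM in replicate 1, the lowest in Mir6943 and the highest in Mir6954. Mir7689, with a log2 ratio of -0.73, did not reach the 2-fold ratio.

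The difference moved with GC in members and other genes alike. The median log2 ratio of replicate 2 over replicate 1 was -0.24 over the members, against 0.03 over the other detected genes, and 58 of 85 members were below 0. In matching GC bins the medians were 0.05 and 0.09 between 45% and 55%, -0.27 and -0.20 between 55% and 65%, and -0.72 and -0.75 at 65% or more. Other genes under 45% GC, a bin with no detected member, had a median of 0.45. Adapter trimming was documented separately for each library, so trimming and replicate cannot be told apart. The libraries also differed in their share of the listed epithelial and sensory genes, at 2.75% and 0.369%, and of the choroid plexus genes, at 0.117% and 0.247%. The part of tissue composition in the difference between the libraries was not tested.

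**Figure D5:**
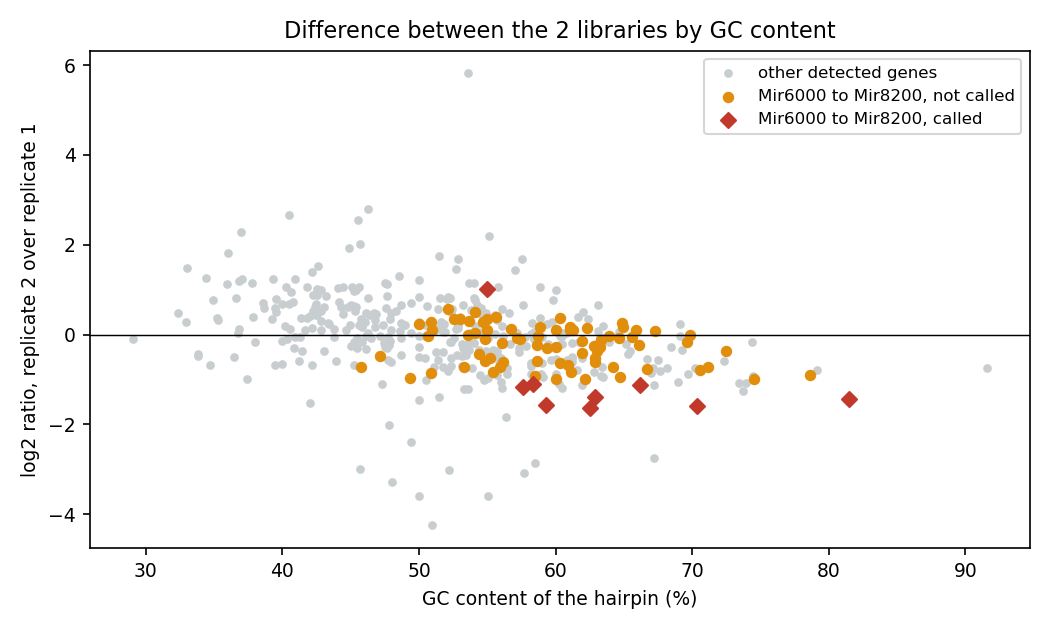
Log2 ratio of replicate 2 over replicate 1 after TMM scaling against GC content of the hairpin, 1 point per detected gene, with other genes in grey, members in orange and called members as red diamonds. In both sets the points drop from left to right, and 8 of the 9 red diamonds lie below 0.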

How the data were processed

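Small RNA reads were counted in 2 libraries of 1 group. The authors deposited raw counts per miRNA gene for either strand, the sense strand and the opposite strand, on mm10 with the GENCODE M21 annotation per the labels. Which aligner and counter made them is not given in the sources used here. The sense counts were used, the 4 summary lines that name no gene were left out (unmapped reads were 17.0% and 11.1%, reads outside genes 3.67% and 2.81%), and CPM was taken over all 2202 gene rows. Of these all 2202 matched the annotation. Hairpin GC came from GENCODE transcripts and folding energy from ViennaRNA 2.7.2. Libraries were compared with an exact binomial test (scipy 1.17.1) after TMM scaling on detected genes (edgeR 4.0.16), with 0.5 added to counts for ratios, and the test was tested on simulated data. DESeq2 1.42.0 size factors, other minimum levels, other position tolerances and each library alone were alternatives. The text names or plots the 20 members of highest mean CPM (1 of which is not reported here), the 3 highest of each position class and GC bin, the called members and those nearest the minimum. Members named for shared hosts, shared seeds or opposite-strand counts, and the last detected mirtron-like members, were chosen after their values were seen. The members and lists were chosen with earlier results of these data known.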

Additional observations from a re-analysis of the deposited data

Results flagged for a closer look

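Counts on the strand opposite to the annotated hairpin lay outside the comparisons, and 14 members had at least 1, with totals of 29 in replicate 1 and 32 in replicate 2. In 3 members they exceeded the 3 counts that a count of 0 allows in both libraries. Mir8105, an intergenic gene, had 8 and 11 opposite-strand counts and no sense count. Mir7654 in Arglu1 had 8 and 5 opposite-strand counts beside 3 and 9 sense counts. Mir7240 opposite Mast3 had 5 and 7 beside 36 and 55.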

How the results depend on the processing

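At a minimum of 5 CPM the members detected fell to 37, with 3 mirtron-like, 4 other intronic and 23 acceptor-aligned. A tolerance of 20 nt gave 33 mirtron-like members with 12 detected. With 1 library left out, other intronic members detected ranged from 9 to 14 and the median GC of undetected members from 52.5% to 52.6%. The median GC of detected members was 58.9% at 1 CPM and 60.9% at 5 CPM, and that of undetected members 52.5% and 53.7%. The share of counts without Mir7689 was 0.123%. Members called between the libraries numbered 15 with library totals (0 higher in replicate 2), 18 of 237 with no filter beyond 1 count, and 23 at a ratio of 1.5, while 19.2%, 11.9% and 39.0% of all genes tested were called. With library totals Mir7224 was no longer called (log2 ratio 0.89). With library totals the median log2 ratio of all detected genes moved from -0.03 to -0.16. The log2 ratios of 4 uncalled members near 0 changed sign: Mir6540 (-0.026), Mir8114 (-0.034) and Mir7688 (-0.12) with library totals, Mir7688 (-0.0047) with the unstranded counts, and Mir6944 with DESeq2 size factors (0.041) and with the deeper library thinned (0.011). No called ratio changed sign, and 57 other summary values stayed within limits that allowed sizeable shifts. Among these, members detected numbered 107 at 1 CPM, 107 in replicate 1 alone and 78 with the deeper library thinned, against 85. The members' share of counts was 0.359% in replicate 1 alone and 0.218% in replicate 2 alone, against 0.288%. No paired analysis was possible because the libraries form 1 group. Depth limits detection near 2 CPM, where counts were 9 to 14, and multiply placed reads were not counted.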
